A study of Mus musculus with 12 samples.

Results

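The Ikaros family of transcription factors has 5 genes in the mouse, Ikzf1 (Ikaros), Ikzf2 (Helios), Ikzf3 (Aiolos), Ikzf4 (Eos) and Ikzf5 (Pegasus). All 5 were found by symbol among the 24062 genes of the deposited count table and were followed through 12 RNA sequencing libraries of CD4+ T cells. Each library came from C57BL/6 mice. The tumour-bearing (TB) mice had received 500000 cells of TC-1, a mouse lung epithelial tumour line, through a tail vein 3 weeks before tissues were taken, and the normal mice are labelled as carrying no tumour. After enrichment of CD4+ cells by negative selection, a sorter separated GFP-positive regulatory T cells (Treg) from GFP-negative conventional T cells (Tconv), with 2 libraries for each of 6 groups: tumour Treg, TB spleen Treg, normal spleen Treg, tumour Tconv, TB spleen Tconv and normal spleen Tconv. The labels do not name the allele that carries GFP, and there was no library from the tumour's organ in a normal mouse. Whether the 2 libraries of a group are from different mice is not stated, and the p-values therefore refer to a spread between libraries that may be technical.

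Ikaros family proteins bind DNA through zinc fingers near the amino terminus and pair with each other through fingers at the carboxyl terminus. They recruit chromatin complexes, above all the nucleosome remodelling and deacetylase complex NuRD, and mostly act as repressors or set the level of target genes during lymphocyte development. Ikaros is present throughout the lymphocyte lineages, Aiolos in maturing B cells and in several T cell subsets, and Helios is best known in T cells for its high level in most Foxp3-positive Treg. Eos binds Foxp3 and takes part in the silencing of Foxp3-repressed genes. Pegasus is the most distant member and recognises a different DNA sequence.

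To compare the members base by base, the coding bases of 2 adjacent DNA-binding fingers are printed here from the GENCODE M21 transcripts of GRCm38 (mm10). In each sequence the capitals are the codons of the 2 cysteines and 2 histidines that hold the zinc in each finger. The stretch is fingers 2 and 3 of Ikzf1, Ikzf2, Ikzf3 and Ikzf4, counted from the amino terminus by the spacing of these residues, and fingers 1 and 2 of Ikzf5, the pair that matched Ikzf1 best.
Ikzf1 (Ikaros): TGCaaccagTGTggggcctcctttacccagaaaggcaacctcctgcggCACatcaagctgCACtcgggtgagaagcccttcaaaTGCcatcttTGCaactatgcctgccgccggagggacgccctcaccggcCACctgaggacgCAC
Ikzf2 (Helios): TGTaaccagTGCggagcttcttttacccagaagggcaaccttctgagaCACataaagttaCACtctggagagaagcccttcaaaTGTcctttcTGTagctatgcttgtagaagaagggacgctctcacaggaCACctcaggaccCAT
Ikzf3 (Aiolos): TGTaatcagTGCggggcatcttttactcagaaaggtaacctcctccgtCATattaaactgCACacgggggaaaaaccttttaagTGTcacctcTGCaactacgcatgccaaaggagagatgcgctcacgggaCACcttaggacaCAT
Ikzf4 (Eos): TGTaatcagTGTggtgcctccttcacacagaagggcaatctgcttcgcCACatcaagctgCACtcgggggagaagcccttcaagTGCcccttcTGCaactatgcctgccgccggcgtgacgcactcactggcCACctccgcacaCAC
Ikzf5 (Pegasus): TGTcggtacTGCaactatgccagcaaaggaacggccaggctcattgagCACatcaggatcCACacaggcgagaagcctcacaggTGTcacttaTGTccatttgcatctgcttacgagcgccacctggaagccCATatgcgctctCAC
These 147 bases lie at chr11:11754024-11754170 (plus strand) for Ikzf1, chr1:69570497-69570643 (minus) for Ikzf2, chr11:98488856-98489002 (minus) for Ikzf3 and chr10:128640145-128640291 (minus) for Ikzf4, each within 1 coding exon. For Ikzf5 they are split over 2 exons between chr7:131392501 and 131393821 (minus). Identity to Ikzf1 was 83.7% for Ikzf4, 78.2% for Ikzf2 and 76.2% for Ikzf3, against 47.6% for Ikzf5. The pairs among Ikzf1 to Ikzf4 ranged between 72.8% and 83.7%, so even the closest pair differed at 24 of the 147 bases. These are identities of bases, in which a change that leaves the encoded residue the same counts as a difference. The encoded residues were not compared, so the values do not rank the finger proteins by likeness. The motif was found 6 times in the coding sequence of Ikzf1, Ikzf2 and Ikzf3 and 5 times in Ikzf4 and Ikzf5. These are matches to a fixed spacing in the transcript of longest coding sequence. A finger spaced otherwise is not counted, so the numbers do not give the fingers of each protein.

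Ikzf1 and Ikzf3 share no exonic base with another annotated gene, and Ikzf2 and Ikzf4 share 1.24% and 0.617% of theirs with genes on the opposite strand. Ikzf5 shares 81.3% of its exonic bases with Pstk on the opposite strand. No source used here says whether counting used strand. Counts of Ikzf5 and Pstk may therefore hold reads of each other or lack reads from the shared bases. Every Ikzf5 value below, its share of the family included, is uncertain to that extent. Counts are per gene and sum the splice forms, including those of Ikaros that lack DNA-binding fingers.

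Totals ran between 18624132 and 24111546 counts per library. Foxp3, the defining transcription factor of Treg, gave 989 to 1247 CPM (counts relative to the TMM-scaled library size) in Treg, against 11.5 to 19.6 CPM in Tconv. The T cell genes Cd3e and Cd4 were at 603 CPM or more in all 12 libraries. Macrophage and monocyte markers, 14 genes led by Lyz2, summed to 298 to 403 CPM in tumour Treg and 193 to 477 CPM in tumour Tconv, against 8.91 to 22.2 CPM in the spleen libraries, with 1 of the 14 at 0 in tumour Treg and 0 in tumour Tconv. The second tumour Tconv library held the higher level, with 8624 Lyz2 and 5205 Col3a1 counts against 2713 and 1689 in the first. Genes induced by tissue dissociation (14 genes) summed to 9002 to 12203 CPM in tumour libraries and 1344 to 3104 CPM in spleen libraries.  Fewer cells of a type and less RNA per cell cannot be told apart in such bulk samples.

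The 5 members divided by cell type in the same way at all 3 sites: Ikzf2, Ikzf4 and Ikzf3 were higher in Treg, Ikzf1 was higher in Tconv, and Ikzf5 lay close in both. In the tumour 3 members were called higher and 2 lower in Treg by edgeR's quasi-likelihood test at an adjusted p under 0.05, where 53.9% of 13509 tested genes were called, 27.2% higher and 26.7% lower. In the TB spleen 3 were called higher and 1 lower, against 40.3% of genes called, 21.0% higher and 19.4% lower. In the normal spleen the counts were again 3 and 1, against 40.6% of genes called, 21.8% higher and 18.7% lower. The median absolute log2 difference over all tested genes was 0.41, 0.30 and 0.31 at the 3 sites, which the differences of Ikzf1, Ikzf2, Ikzf3 and Ikzf4 all exceeded.

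**Figure D1:**
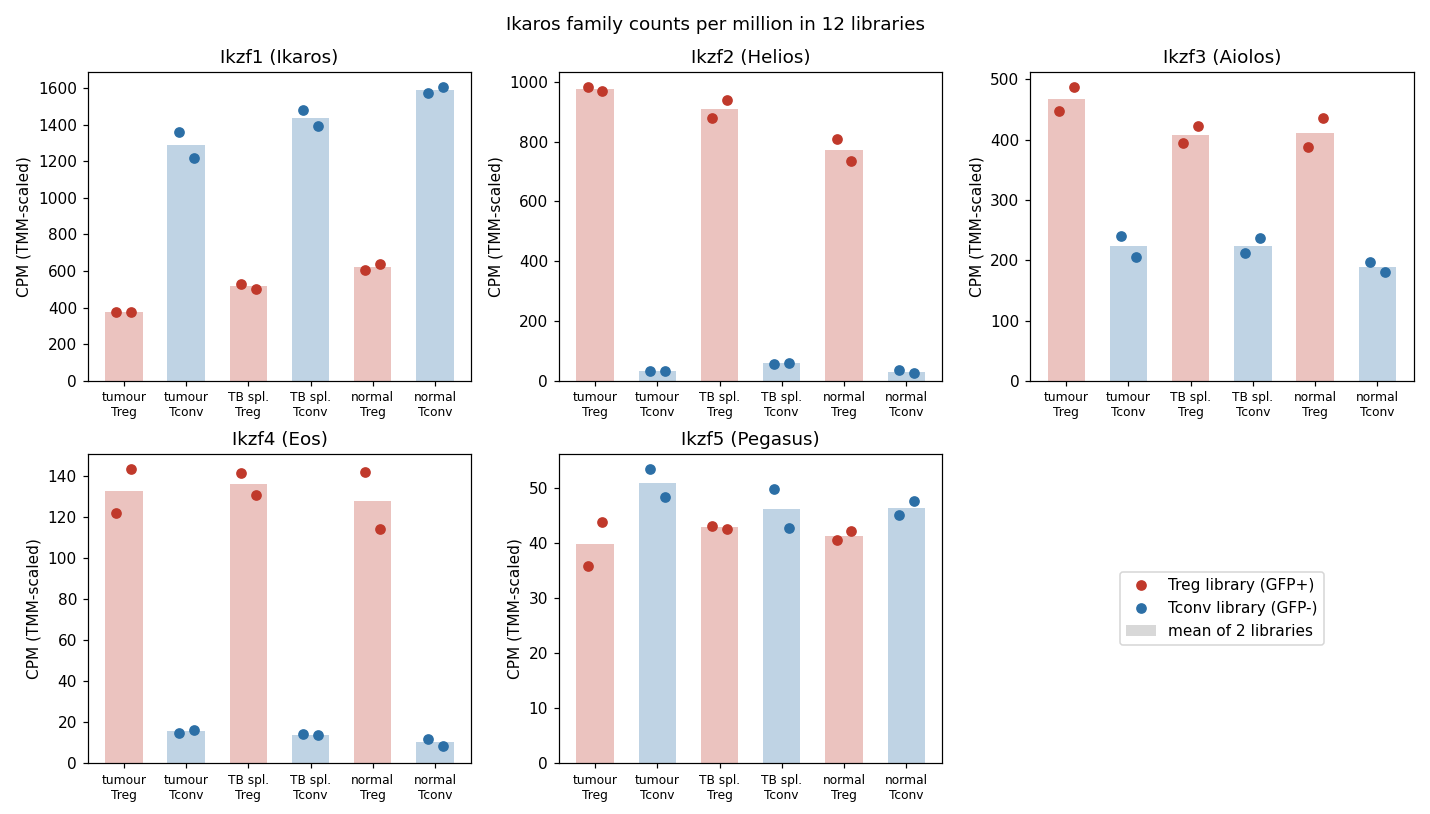
CPM of each family member (vertical axes, linear from 0) in the 12 libraries, by group; points are single libraries and bars the means of 2. The 6 Treg libraries lie above the 6 Tconv libraries for Ikzf2, Ikzf3 and Ikzf4 and below them for Ikzf1, and the Ikzf5 libraries lie within 35.9 to 53.5 CPM.

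Ikzf2, which encodes Helios, had the widest range. It had 984 and 970 CPM in tumour Treg, 880 and 939 CPM in TB spleen Treg and 807 and 734 CPM in normal spleen Treg. The Tconv libraries had 31.9 and 31.2 CPM in the tumour, 57.5 and 60.1 CPM in the TB spleen and 34.7 and 26.5 CPM in the normal spleen. Every Treg library was more than 10 times higher than any Tconv library, and the TB spleen stood above the other 2 sites within Tconv. Treg exceeded Tconv by 4.95 ± 0.12 on the log2 scale in the tumour (SE; adjusted p = 3.44e-11), by 3.95 ± 0.11 in the TB spleen (1.18e-10) and by 4.66 ± 0.11 in the normal spleen (8.50e-11). These are 31.0-fold, 15.5-fold and 25.2-fold differences.

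Ikzf4, which encodes Eos, also separated the cell types, by less than Ikzf2 at each site and at a lower level. It had 122 and 143 CPM in tumour Treg, 141 and 131 CPM in TB spleen Treg and 142 and 114 CPM in normal spleen Treg. The Tconv libraries had 14.7 and 16.2 CPM in the tumour, 14.0 and 13.6 CPM in the TB spleen and 11.9 and 8.49 CPM in the normal spleen, from 178 to 356 counts each. The 3 Treg groups overlapped, and the Tconv groups did not, though neither tested difference between sites passed in Tconv. The log2 difference of Treg from Tconv was 3.10 ± 0.14 in the tumour, 3.30 ± 0.14 in the TB spleen and 3.66 ± 0.15 in the normal spleen, with adjusted p of at most 4.87e-09.

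Ikzf3, which encodes Aiolos, was about 2 times higher in Treg. It had 448 and 488 CPM in tumour Treg, 395 and 423 CPM in TB spleen Treg and 387 and 436 CPM in normal spleen Treg. Tconv had 240 and 206 CPM in the tumour, 213 and 236 CPM in the TB spleen and 198 and 180 CPM in the normal spleen. The lowest Treg library was above the highest Tconv library by a wide margin. The log2 differences were 1.07 ± 0.10, 0.86 ± 0.10 and 1.13 ± 0.10 in the tumour, TB spleen and normal spleen, with adjusted p of at most 1.35e-05. B cells also express Ikzf3, and the 10 B cell markers summed to at least 19.8 CPM in tumour Treg, 39.2 to 39.8 CPM in TB spleen Treg and 37.7 to 38.4 CPM in normal spleen Treg, against 6.17 to 13.9 CPM in the Tconv libraries. Of the 10, 3 were tested. In Treg against Tconv, 2 of these were called higher and 0 lower in each spleen, and 1 and 1 in the tumour. Over all genes 21.0% were higher and 19.4% lower in the TB spleen, and 21.8% and 18.7% in the normal spleen. In the tumour the shares were 27.2% and 26.7%. Among the 10, Ms4a1 and Pax5 had at most 9 counts in any library and Cd79a 5 to 19. The part of B cells in the Ikzf3 difference was not tested.

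Ikzf1, which encodes Ikaros, went the other way. It had 379 and 375 CPM in tumour Treg, 527 and 504 CPM in TB spleen Treg and 605 and 639 CPM in normal spleen Treg. Tconv had 1359 and 1216 CPM in the tumour, 1478 and 1395 CPM in the TB spleen and 1571 and 1608 CPM in the normal spleen. The libraries fell into 6 groups that did not overlap, and the order was tumour, TB spleen, normal spleen from low to high within each cell type. How many of all genes separate in this way was not counted. In Tconv neither step between sites passed edgeR's test. Tumour against TB spleen gave −0.16 ± 0.07 (adjusted p = 0.0759) and TB against normal spleen −0.15 ± 0.07 (0.171). Cd3e means had the same order, at 651, 808 and 901 CPM in Treg and 636, 763 and 867 CPM in Tconv. For Ikzf1, Treg differed from Tconv by −1.77 ± 0.07 on the log2 scale in the tumour (adjusted p = 1.08e-09), −1.48 ± 0.07 in the TB spleen (9.61e-09) and −1.35 ± 0.07 in the normal spleen (1.62e-08). Treg was thus 3.42-fold, 2.79-fold and 2.56-fold lower. The 12 Treg to Tconv differences of Ikzf1 to Ikzf4 were called with the same direction under all 21 alternative settings.

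Ikzf5, which encodes Pegasus, had 35.9 and 43.8 CPM in tumour Treg, 43.1 and 42.5 CPM in TB spleen Treg and 40.5 and 42.3 CPM in normal spleen Treg. Tconv had 53.5 and 48.4 CPM in the tumour, 49.7 and 42.7 CPM in the TB spleen and 45.1 and 47.5 CPM in the normal spleen. The groups overlapped in the TB spleen and lay apart at the other sites. The log2 difference was −0.35 ± 0.10 in the tumour (adjusted p = 0.0112), −0.11 ± 0.10 in the TB spleen (0.444) and −0.16 ± 0.10 in the normal spleen (0.233). The tumour call was lost without the first tumour Treg library (−0.21, adjusted p = 0.115) and in a fit of the 2 tumour groups alone (−0.31, 0.105). Pstk, the overlapping gene, lay between 14.2 and 21.5 CPM in the 12 libraries, and its highest value was in the first tumour Treg library, where Ikzf5 was lowest. Without the second tumour Tconv library, the one richest in Lyz2, all 5 members were still called in the tumour, with log2 differences of 4.92 for Ikzf2, 3.17 for Ikzf4, 0.95 for Ikzf3, −1.86 for Ikzf1 and −0.44 for Ikzf5.

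**Figure D2:**
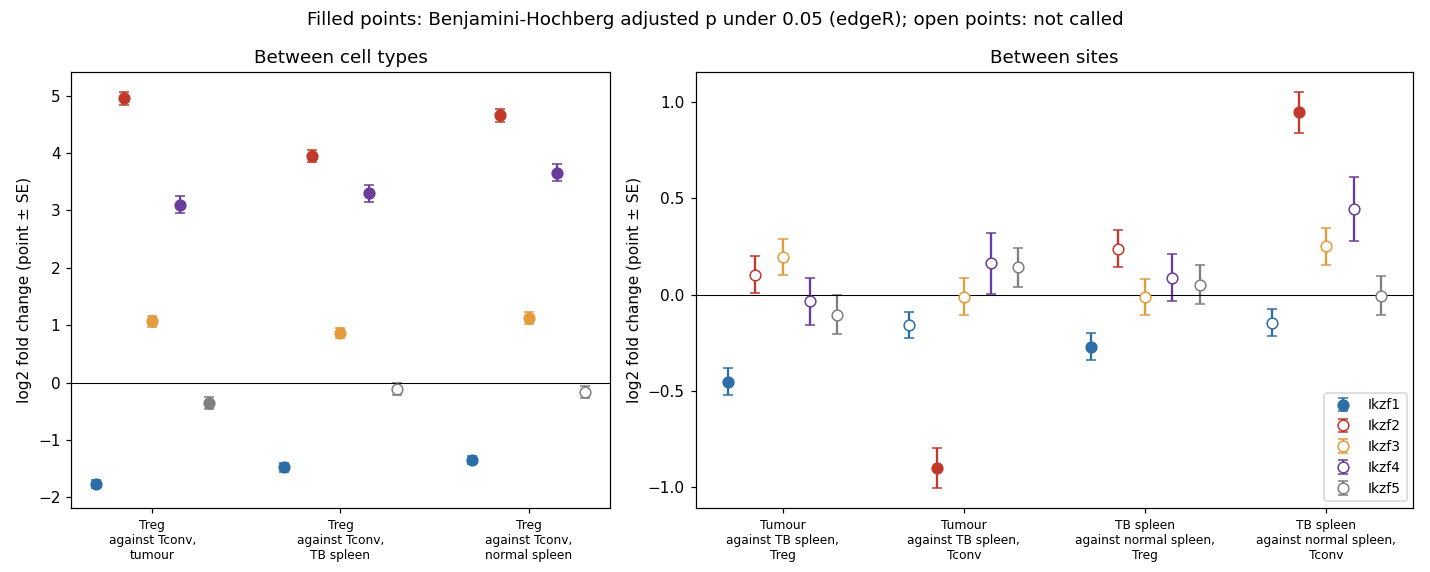
Log2 fold changes of the 5 members (vertical axes, point ± SE) between Treg and Tconv at each site (left) and between sites within each cell type (right); filled points passed an adjusted p of 0.05. Between cell types the values run between −1.77 and 4.95, and between sites between −0.90 and 0.95, on a separate axis.

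Set against exon length, the same counts give the make-up of the family. CPM were divided by the annotated exon length of each gene, which was 5777, 11613, 8754, 5995 and 5721 bases for Ikzf1 to Ikzf5. On this per-kilobase scale the family summed to 232 ± 5.52 in tumour Treg, 244 ± 1.76 in TB spleen Treg and 250 ± 0.693 in normal spleen Treg (SD, n = 2), against 263 ± 20.9, 290 ± 9.08 and 309 ± 2.48 in Tconv of the same sites. The sum thus ranged only between 228 and 311 over all 12 libraries, while its parts differed widely.

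In Tconv, Ikzf1 made up most of the family at every site: 84.9% ± 0.0489 in the tumour, 85.8% ± 0.839 in the TB spleen and 89.0% ± 0.746 in the normal spleen. In Treg its share was 28.1% ± 0.864 in the tumour, 36.5% ± 1.39 in the TB spleen and 43.1% ± 1.55 in the normal spleen. Ikzf2 made up 36.3% ± 1.23, 32.0% ± 1.25 and 26.6% ± 1.85 of the family in Treg of the 3 sites, against 1.04%, 1.75% and 0.852% in Tconv. Ikzf2 was therefore the most abundant member per kilobase in tumour Treg, and Ikzf1 in Treg of both spleens. The shares and this order rest on the length of all annotated exons of a gene, and the lengths of the transcripts expressed were not measured. In counts not divided by length, Ikzf2 was above Ikzf1 in every Treg library, at 1.15 to 2.60 times. Ikzf3 contributed 23.0%, 19.1% and 18.8% in Treg and 9.69%, 8.86% and 6.97% in Tconv, and Ikzf4 9.53%, 9.28% and 8.55% in Treg and at most 1.09% in any Tconv library. Ikzf5 stayed between 2.56% and 3.42% throughout.

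**Figure D3:**
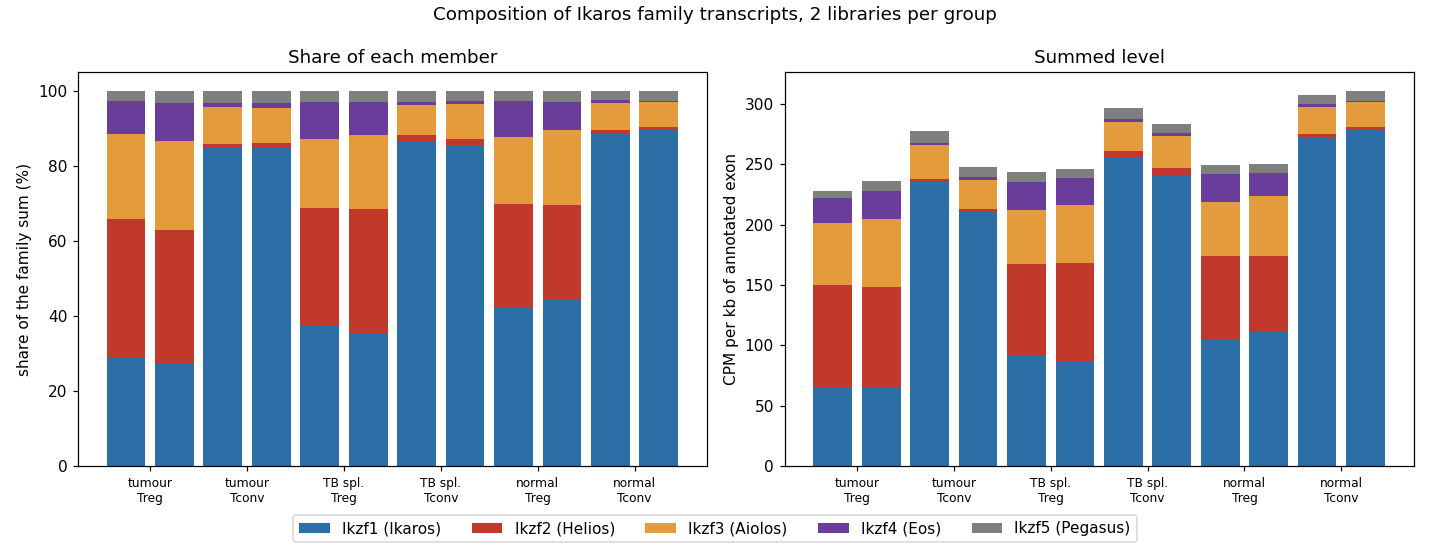
Share of each member in the family sum (left, percent) and the summed level (right, CPM per kilobase of annotated exon), for each of the 12 libraries in pairs by group. Ikzf1 fills most of each Tconv bar and less than 45% of each Treg bar, where Ikzf2, Ikzf3 and Ikzf4 fill most of the rest.

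The comparison of tumour with TB spleen asks how the family differs at the tumour site within each cell type. These tissues differ in organ as well as in tumour, and the parts of organ and tumour cannot be told apart here. In Treg, Ikzf1 was the member that differed: it was lower in the tumour by 0.45 ± 0.07 on the log2 scale, or 1.37-fold (adjusted p = 0.000132), with 379 and 375 CPM in tumour Treg against 527 and 504 CPM in TB spleen Treg. This was 1 of 5 members called, against 61.4% of all tested genes (32.8% higher, 28.7% lower). The median absolute log2 difference over all genes was 0.46, larger than that of any of the 5 members. The log2 difference of Ikzf2 was 0.10 ± 0.09, of Ikzf3 0.20 ± 0.09, of Ikzf4 −0.04 ± 0.12 and of Ikzf5 −0.10 ± 0.10, and none of these passed the test. The Ikzf1 call held under all 21 alternatives, with log2 values between −0.61 and −0.41. The macrophage and dissociation genes given above were higher in the same tumour libraries. Col3a1, a fibroblast gene, had 4300 and 4036 counts in tumour Treg, against 0 and 0 in TB spleen Treg. The 9 dendritic cell markers summed to 172 to 226 CPM in tumour Treg, against 42.4 to 45.4 CPM in TB spleen Treg. Of these markers 6 were tested, with 4 called higher and 0 lower. Cd3e, a T cell receptor complex chain, was lower in tumour than in TB spleen by 0.31 ± 0.07 on the log2 scale in Treg (adjusted p = 0.00243) and by 0.26 ± 0.07 in Tconv (0.00921), and of the 6 T cell markers 1 was higher and 2 lower in Treg. The part of any of these in the Ikzf1 difference was not tested.

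In Tconv, Ikzf2 was the member that differed. It was lower in tumour Tconv than in TB spleen Tconv by 0.90 ± 0.11 on the log2 scale, or 1.87-fold (adjusted p = 2.53e-05), and again 1 of 5 members was called, against 49.1% of all tested genes (26.4% higher, 22.8% lower). The call held under all 21 alternatives, and without the second tumour Tconv library, the one richest in Lyz2, the log2 difference was −0.89. Ikzf1 differed by −0.16 ± 0.07 (adjusted p = 0.0759). It passed the test with scaling by library size alone (−0.27, 0.00306) and without the first tumour Tconv library (−0.23, 0.0258), and not without the second (−0.09, 0.370). Scaling by library size alone moved the median of all genes in the tumour comparisons by −0.16 in Treg and −0.11 in Tconv. The log2 differences of Ikzf3, Ikzf4 and Ikzf5 were −0.01 ± 0.10, 0.16 ± 0.16 and 0.14 ± 0.10.

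The interaction asks whether the tumour to TB spleen difference itself differed between Treg and Tconv, and 24.7% of tested genes passed it, 11.7% higher and 13.1% lower. Ikzf2 did, with a log2 value of 1.00 ± 0.14 for Treg minus Tconv (adjusted p = 0.000426), and all 21 alternatives gave the same call. Ikzf1 gave −0.29 ± 0.10 (adjusted p = 0.0449), a call that was kept in 8 of the 21 alternatives, whose adjusted p ran between 0.0115 and 0.156. It was lost without 11 of the 12 libraries in turn, among them the first TB spleen Treg library (−0.26, 0.156) and the second TB spleen Tconv library (−0.25, 0.146). It also missed the threshold with the RLE size factors (0.0542) and in a fit of only the 4 groups compared (0.0814). Ikzf5 gave −0.25 ± 0.15 (adjusted p = 0.249) and passed without the second tumour Treg library (−0.39, 0.0498).

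The comparison of TB spleen with normal spleen asks how the family differs in the same organ when the mouse bears a tumour. It uses the same TB spleen libraries as the comparison with the tumour, so the values of both are set side by side only. In Tconv, Ikzf2 was 1.93-fold higher in TB mice, with 57.5 and 60.1 CPM against 34.7 and 26.5 CPM in normal mice, a log2 difference of 0.95 ± 0.11 (adjusted p = 0.000156). It was the 1 member called, where 17.2% of genes were called, 9.74% higher and 7.49% lower. All 21 alternatives gave the same call, between 0.76 and 1.15, the largest without the first normal Tconv library. The log2 differences of Ikzf4 (0.44 ± 0.17, adjusted p = 0.0910) and Ikzf3 (0.25 ± 0.10, 0.0941) did not pass. Ikzf4 passed without the first normal Tconv library (0.70, 0.0419). Ikzf3 passed without either tumour Tconv library (0.26, 0.0458 without the first, and 0.25, 0.0497 without the second). Dissociation genes summed to 1375 to 3104 CPM in TB spleen Tconv, against 1344 to 1407 CPM in normal spleen Tconv, and CD8 T and NK cell markers to 87.2 to 119 CPM, against 75.0 to 78.5 CPM. Their part in the Ikzf2 difference was not tested.

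Foxp3 did not follow Ikzf2 in these Tconv libraries. It had 13.3 and 16.8 CPM in TB spleen Tconv against 18.1 and 19.6 CPM in normal spleen Tconv, a log2 difference of −0.32 ± 0.14 (adjusted p = 0.141). Foxp3 in Tconv was 1.15%, 1.48% and 1.86% of its Treg level in the tumour, TB spleen and normal spleen. The same percentage of the Treg level of Ikzf2 would be 11.3, 13.5 and 14.3 CPM, and the measured means in Tconv were 31.5, 58.8 and 30.6 CPM. For Ikzf4 these values were 1.53, 2.01 and 2.38 CPM, against measured means of 15.4, 13.8 and 10.2 CPM. The measured means were thus 2.80, 4.36 and 2.13 times these values for Ikzf2 and 10.1, 6.85 and 4.28 times for Ikzf4. Tconv were sorted as GFP-negative, and should the GFP mark Foxp3 expression, the sort itself would hold Foxp3 low in Tconv. The multiples therefore do not measure how many Treg were carried over into Tconv, which was not tested.

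**Figure D4:**
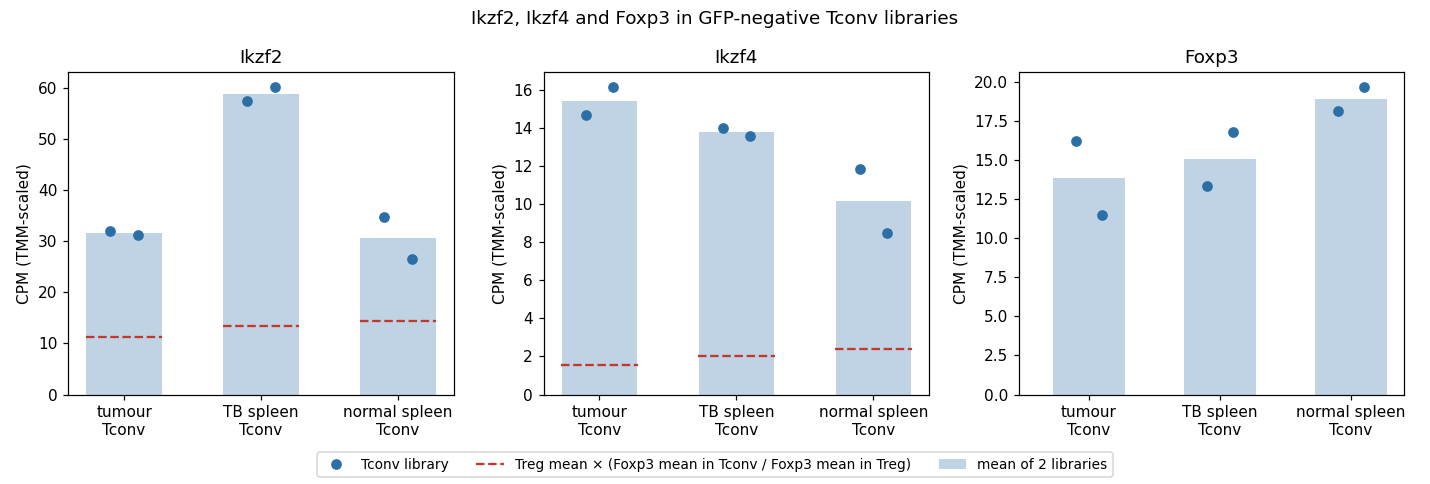
CPM of Ikzf2, Ikzf4 and Foxp3 (vertical axes, linear from 0) in the Tconv libraries of the 3 sites; points are libraries, bars the means of 2, and dashed lines the Treg mean of the gene multiplied by the ratio of Foxp3 in Tconv to Foxp3 in Treg. Ikzf2 is highest in the TB spleen at 57.5 and 60.1 CPM, where Foxp3 is at 13.3 and 16.8 CPM.

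In Treg, Ikzf1 was lower in the TB spleen than in the normal spleen by 0.27 ± 0.07 on the log2 scale, or 1.21-fold (adjusted p = 0.0214), with 527 and 504 CPM in TB spleen Treg against 605 and 639 CPM in normal spleen Treg. It was the 1 member called, against 15.3% of genes called, 6.80% higher and 8.50% lower. The call was lost without the first (−0.30, adjusted p = 0.0764) or second (−0.24, 0.160) TB spleen Treg library and without the first (−0.31, 0.0578) or second (−0.23, 0.179) normal Treg library. Ikzf2 was at a log2 difference of 0.24 ± 0.09 (adjusted p = 0.112), and Ikzf3, Ikzf4 and Ikzf5 were within 0.09 of 0. Of the 6 T cell markers, 0 were higher and 3 lower in TB than in normal spleen Treg, with a median log2 difference of −0.25: the kinase Lck (−0.46 ± 0.07), the surface receptor Cd5 (−0.44 ± 0.07) and the receptor chain Cd3g (−0.25 ± 0.07). The same 3 were lower in Tconv (−0.35 ± 0.07, −0.33 ± 0.07 and −0.28 ± 0.07). Their part in the Ikzf1 difference was not tested.

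The second interaction, of cell type with tumour status in the spleen, was passed by 0.851% of tested genes, 0.222% higher and 0.629% lower. Ikzf2 was among them at −0.71 ± 0.14 (adjusted p = 0.0404), with a level 1.93-fold higher in TB Tconv and 1.18-fold higher in TB Treg. This call was kept in 13 of the 21 alternatives. It was lost with the RLE size factors (adjusted p = 0.0539) and without either TB spleen Treg library (0.160 and 0.111), either normal Treg library (0.183 and 0.0727), either TB spleen Tconv library (0.0964 and 0.191) or the second normal Tconv library (−0.52, 0.166).

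In TB against normal spleen, the Treg signature genes were counted beside Ikzf2. Of 19 such genes other than the family, 11 were called higher and 0 lower in TB spleen Tconv than in normal spleen Tconv, with a median log2 difference of 1.11, against 0.00 over all genes, of which 9.74% were called higher and 7.49% lower. Penk, which encodes an opioid peptide precursor, averaged 13.1 ± 2.23 CPM in TB spleen Tconv and 2.67 ± 0.195 CPM in normal spleen Tconv. Socs2, a cytokine signalling inhibitor, averaged 13.1 ± 5.34 CPM and 2.70 ± 0.221 CPM in the same groups, and Tigit, an inhibitory receptor, 46.4 ± 7.66 CPM and 9.98 ± 3.19 CPM (SD, n = 2). Their log2 differences were 2.30 ± 0.17, 2.28 ± 0.24 and 2.22 ± 0.24. Foxp3, also on the list, went the other way in Tconv and was not called (−0.32 ± 0.14, adjusted p = 0.141 by edgeR). In Treg the list gave 4 higher and 2 lower, median 0.00, beside 6.80% and 8.50% of all genes. In the interaction 0 were higher and 8 lower, with a median of −0.97, against −0.02 over all genes, of which 0.222% were higher and 0.629% lower. The list was led there by Socs2 (−2.76 ± 0.30), Il2ra (−2.17 ± 0.21), the interleukin 2 receptor alpha chain, and Penk (−2.04 ± 0.20). With 1 library left out the Tconv count ran between 10 and 12 higher and the interaction between 5 and 11 lower, with 5 without either TB spleen Treg library and without the second normal Treg or the second normal Tconv library. In Treg the count lower ran between 0 and 5, with 0 without the second TB spleen Treg or either normal Treg library and 5 without either tumour Tconv library.

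Among the proteins that work with the family, the NuRD complex supplies deacetylase and remodelling activity. Of its 13 subunits, 4 were higher and 5 lower in tumour Treg than in tumour Tconv, with a median log2 difference of 0.08, against 0.00 over all genes, of which 27.2% were higher and 26.7% lower. Of the subunits, 2 were higher and 5 lower without the second tumour Tconv library. The largest were Gatad2b (−0.72 ± 0.09), the deacetylase Hdac2 (−0.68 ± 0.08) and the helicase Chd3 (−0.64 ± 0.07). In the TB spleen only Hdac2 was called (−0.39 ± 0.08), and in the normal spleen Hdac2 (−0.43 ± 0.08) and Gatad2a (0.18 ± 0.06). Hdac2, like Ikzf1, was lower in Treg at all 3 sites: it averaged 61.5 ± 6.79, 88.8 ± 0.442 and 110 ± 0.0318 CPM in tumour, TB spleen and normal spleen Treg, against 98.3 ± 6.29, 116 ± 4.07 and 147 ± 1.93 CPM in Tconv.

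Between tumour and TB spleen, 3 NuRD subunits were higher and 5 lower in Treg, and the same numbers in Tconv. Over all genes 32.8% were higher and 28.7% lower in Treg, and 26.4% and 22.8% in Tconv. The methyl-DNA-binding subunit Mbd2 was 0.98 ± 0.07 higher on the log2 scale in tumour Treg, where it averaged 481 ± 31.0 CPM against 245 ± 0.145 CPM in TB spleen Treg, and Hdac2 (−0.53 ± 0.08) and Chd3 (−0.48 ± 0.07) were lower. In Tconv the leading subunits were Hdac1 (−0.44 ± 0.09), Mta2 (−0.43 ± 0.06) and Mta3 (0.33 ± 0.10). Between TB and normal spleen 4 subunits were lower and 0 higher in Treg, among them Hdac1 (−0.46 ± 0.09) and Chd3 (−0.39 ± 0.07), and 2 were lower in Tconv, Hdac2 (−0.34 ± 0.08) and Chd3 (−0.28 ± 0.07), where 8.50% of all genes were lower in Treg and 7.49% in Tconv. These counts depend on single libraries. With 1 left out, the number lower ran between 0 and 5 in Treg, with 0 without the second normal Treg library, and between 0 and 2 in Tconv, with 0 without the second TB spleen Tconv or either normal Tconv library. In the tumour comparison 1 to 3 were then higher and 4 to 6 lower in Treg, with 1 higher without the second TB spleen Treg or the second normal Tconv library. In Tconv 1 to 4 were higher and 2 to 5 lower, with the lowest counts without the first TB spleen Tconv library.

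The 6 CtBP and Sin3 corepressor genes gave 3 higher and 1 lower in tumour against TB spleen Treg, and 2 higher and 0 lower in Tconv, beside 32.8% higher and 28.7% lower of all genes in Treg and 26.4% and 22.8% in Tconv. Sap30, a Sin3 subunit, averaged 8.45 ± 0.145 CPM in tumour Treg against 2.49 ± 0.174 CPM in TB spleen Treg (log2 1.76 ± 0.20), and 8.14 ± 0.217 CPM in tumour Tconv against 2.98 ± 0.655 CPM in TB spleen Tconv (1.46 ± 0.20). Ctbp2 had 106 and 115 counts in tumour Treg against 8 and 13 in TB spleen Treg, and 31 and 132 in tumour Tconv against 4 and 5 in TB spleen Tconv. Its higher count of the 2 tumour Tconv libraries was in the one richest in Lyz2 and Col3a1, and the part of those cells in the Ctbp2 difference was not tested. Sin3a was lower in Treg than in Tconv in the tumour (−0.44 ± 0.07).

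Cereblon, encoded by Crbn, is the substrate receptor of the ubiquitin ligase through which thalidomide analogues degrade human Ikaros and Aiolos. Crbn averaged 230 ± 1.55, 164 ± 2.78 and 131 ± 2.76 CPM in tumour, TB spleen and normal spleen Treg, against 180 ± 1.80, 138 ± 4.004 and 127 ± 1.44 CPM in Tconv. It was higher in Treg than in Tconv in the tumour (log2 0.35 ± 0.06, adjusted p = 0.000161) and the TB spleen (0.25 ± 0.06, 0.00357). It was higher in tumour than in TB spleen by 0.49 ± 0.06 in Treg and 0.39 ± 0.06 in Tconv, and higher in TB than in normal spleen Treg by 0.32 ± 0.06. Of the 5 ligase genes the numbers called higher and lower were 2 and 0, 1 and 1, and 1 and 0 for Treg against Tconv in the tumour, TB spleen and normal spleen, beside 27.2% and 26.7%, 21.0% and 19.4%, and 21.8% and 18.7% of all genes.

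Of 12 genes described in T cells as regulated by a family member, 4 were higher and 7 lower in tumour Treg than in tumour Tconv, 4 and 6 in the TB spleen and 5 and 5 in the normal spleen. Over all genes the shares called higher and lower were 27.2% and 26.7% in the tumour, 21.0% and 19.4% in the TB spleen and 21.8% and 18.7% in the normal spleen. Il2, which Ikaros and Aiolos are known to repress, had at most 1 count in any Treg library and 13 to 20 counts in each Tconv library. It was called lower in Treg at each site, with adjusted p of at most 0.00114, while Ikzf1 was lower and Ikzf3 higher there. Il10, an anti-inflammatory cytokine, averaged 93.0 ± 0.484, 10.8 ± 1.41 and 5.49 ± 0.302 CPM in tumour, TB spleen and normal spleen Treg, against 7.28 ± 4.07, 2.03 ± 0.452 and 0.248 ± 0.0813 CPM in Tconv. It was higher in Treg at each site by 3.70 ± 0.25, 2.43 ± 0.31 and 4.44 ± 0.52 on the log2 scale.

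In TB against normal spleen Tconv, 4 of the 12 were higher and 1 lower, with a median log2 difference of 0.38, and 2 higher and 0 lower without the second normal Tconv library, beside 9.74% and 7.49% of all genes. Bcl2, a survival gene, averaged 825 ± 27.3 CPM in TB spleen Tconv and 259 ± 1.35 CPM in normal spleen Tconv, a log2 difference of 1.67 ± 0.06 (adjusted p = 3.11e-08). In Treg it averaged 230 ± 14.4 CPM in the TB spleen and 209 ± 1.94 CPM in the normal spleen, and the interaction was −1.53 ± 0.09. Il7r, the receptor for interleukin 7, was higher in the TB spleen in both cell types, by 1.23 ± 0.12 in Treg and 0.70 ± 0.12 in Tconv. Dtx1, a Notch pathway gene, differed by −1.22 ± 0.12 between TB and normal spleen Treg. Between tumour and TB spleen 8 were higher and 3 lower in Treg (all genes 32.8% and 28.7%), and 6 and 3 in Tconv (26.4% and 22.8%). In the interaction of cell type with tumour site 3 were higher and 3 lower (11.7% and 13.1%), led by Tbx21, which directs type 1 helper cells (2.41 ± 0.28), Bcl6, which directs follicular helper cells (−1.44 ± 0.17), and Il10 (1.28 ± 0.43). Only 1 was higher without the first tumour Treg, the first TB spleen Treg or the second TB spleen Tconv library.

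The genes whose pattern over the 12 libraries was closest to each member were ranked by the root mean square difference between log2 CPM profiles, each centred on its own mean, among 8356 expressed genes. For Ikzf1 these were Focad, Rasgrp2 and Txk, at 0.0983, 0.119 and 0.153, and 29 genes lay within 0.25. Focad averaged 13.4 CPM in tumour Treg against 45.4 CPM in tumour Tconv. For Ikzf2 they were Cd83, Itgb8 and Alox8 at 0.439, 0.487 and 0.554, and no gene lay within 0.25. Cd83 and Itgb8 passed both interactions with the same signs as Ikzf2, at 1.64 ± 0.20 and 1.71 ± 0.35 for the tumour and −1.14 ± 0.21 and −1.83 ± 0.37 for the spleen of TB mice. Alox8 passed the tumour interaction at 0.80 ± 0.23 (adjusted p = 0.0261) and not that of the spleen, at −0.05 ± 0.23. Likeness to Ikzf2 chose these genes, so the values are a description.

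For Ikzf3, Eif2ak2 and Plgrkt were among the 3 closest at 0.0847 and 0.114, with 156 genes within 0.25. For Ikzf4 they were Epcam, Arrdc4 and Alox8 at 0.275, 0.308 and 0.333, with 0 genes within 0.25. Epcam averaged 25.0, 24.9 and 26.0 CPM in tumour, TB spleen and normal spleen Treg, against 3.29, 3.96 and 2.41 CPM in Tconv. For Ikzf5, whose own profile varied by 0.145, they were Rbm27, Usp16 and Fxr1 at 0.0559, 0.0662 and 0.0671, and 3103 genes lay within 0.25. Ranked instead by Pearson's r over the 6 group means, 1 of the 3 names was shared for each of Ikzf1, Ikzf2 and Ikzf4, and 0 for Ikzf5.

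**Figure D5:**
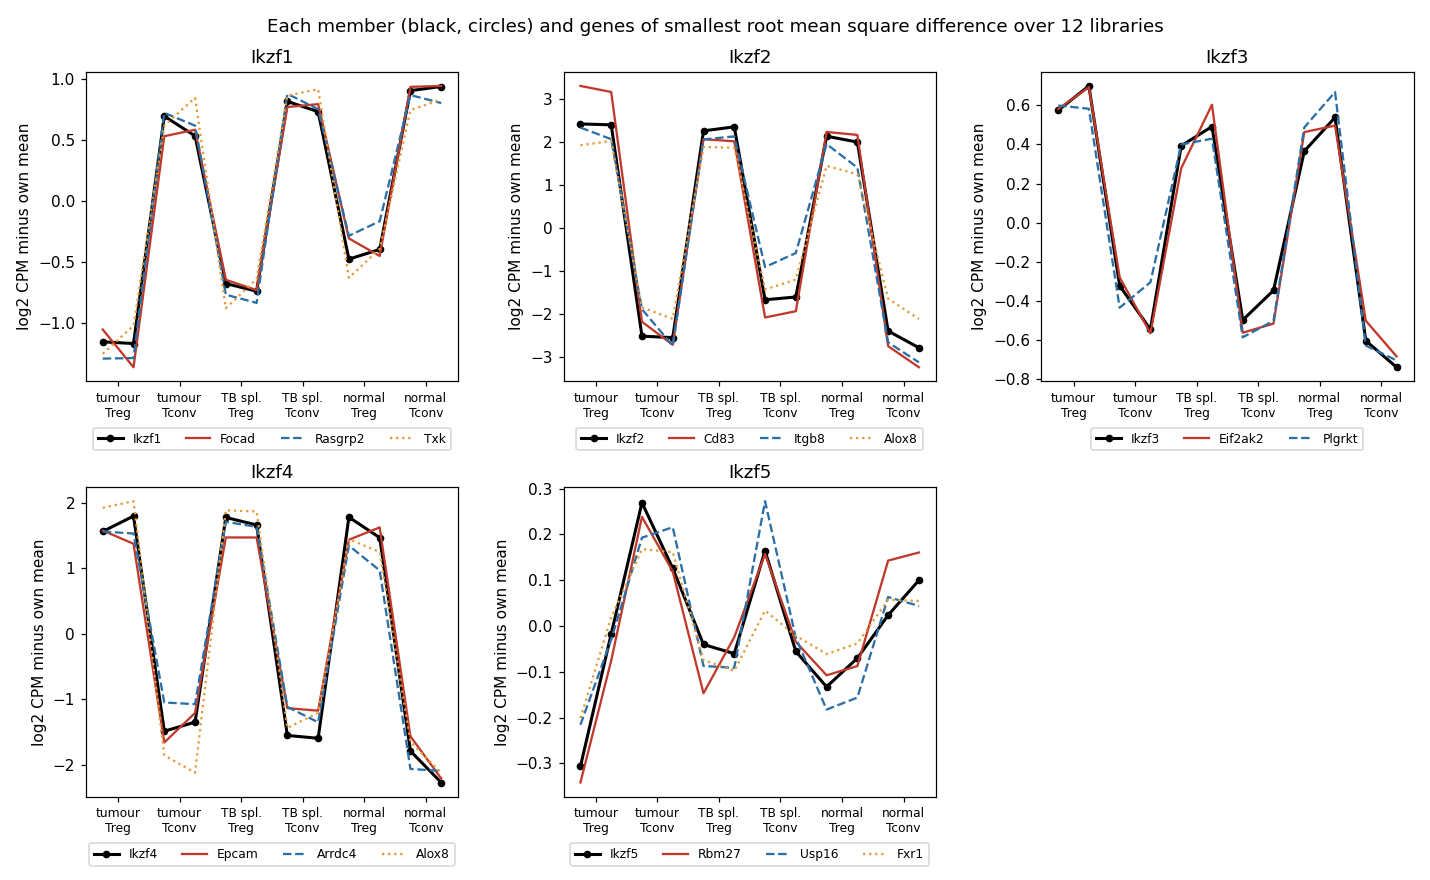
Log2 CPM of each member (black) and of 2 (Ikzf3) or 3 genes among those of most similar pattern (coloured), each minus its own mean over the 12 libraries (vertical axes, ranges differ between panels), with libraries in pairs by group. The genes near Ikzf1, Ikzf3 and Ikzf5 follow the member within 0.16 on average, and those near Ikzf2 and Ikzf4 depart from it by 0.275 to 0.554.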

How the data were processed

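Per the labels' protocols, a stranded messenger RNA kit and a NextSeq500 were used. STAR, featureCounts and the mm10 assembly are named, without versions, per the submitters' processing notes, with no strand setting given. The deposited values are unscaled whole read counts per gene. Of 24062 genes, 5873 had 0 counts everywhere.

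Counts were analysed with edgeR 4.0.16 (R 4.3.3): filterByExpr by group (13509 genes), TMM scaling (factors 0.942 to 1.07), and 1 quasi-likelihood fit of 6 group means to 12 libraries (6 residual degrees of freedom). There were 7 comparisons and 2 interactions, two-sided and adjusted by Benjamini-Hochberg across every gene tested. Genes with an adjusted p under 0.05 are called. The SE of a log2 value was derived from the test, as its absolute value divided by the square root of the F statistic. The code was also run on simulated counts in which few genes changed, in tumour Treg alone. That setting differs from these data, so it gives no error rate for them. Alternatives were DESeq2 1.42.0, its size factors in edgeR (RLE), library-size scaling, limma-voom (limma 3.58.1), a robust fit, other filters, fits of only the groups compared, a replicate block and leaving out each library. Replicates varied by 3.56 to 17.0 times counting error (chi-square per gene), so the 2 libraries of each group differed by more than counting error, a spread that may be technical.

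The members and gene lists were chosen with earlier results of these data known. Named genes are the 5 members, up to 3 called members of each list with the largest change, the 3 genes most similar to each member (mean log2 CPM of at least 3, gene models, pseudogenes and receptor segments passed over), and Foxp3, Cd3e and Cd4. The choice among them for the text was made with values known, as was leaving out single libraries for the lists. Exon lengths and coding sequences are from GENCODE M21. A few genes are not reported here. The logged CPM profiles used a prior count of 2.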

Additional observations from a re-analysis of the deposited data

Results flagged for a closer look

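The difference between tumour and TB spleen passed edgeR's test of the interaction with cell type for Ikzf2 and Ikzf1, and the Ikzf1 call was kept in only 8 of 21 alternatives. Ikzf2 gave 1.00 ± 0.14 on the log2 scale (adjusted p = 0.000426): it was 1.07-fold higher in tumour Treg than in TB spleen Treg, a difference that did not pass the test, and 1.87-fold lower in tumour Tconv than in TB spleen Tconv. Ikzf1 gave −0.29 ± 0.10 (adjusted p = 0.0449), with a value 1.37-fold lower in tumour Treg and a value 1.12-fold lower in tumour Tconv that did not pass. The Ikzf1 interaction missed the threshold without 11 of the 12 libraries in turn, with RLE size factors and in a fit of only the groups compared.

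The difference between TB and normal spleen passed the test of its interaction with cell type for Ikzf2, at −0.71 ± 0.14 (adjusted p = 0.0404), with a value 1.18-fold higher in TB Treg that did not pass and a 1.93-fold rise in TB Tconv. This call was kept in 13 of 21 alternatives and lost with RLE size factors and without 7 of the 12 libraries in turn. Both TB spleen Tconv libraries, at 57.5 and 60.1 CPM, lay above all 4 other Tconv libraries.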

How the results depend on the processing

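Of 20 calls on the members, 16 kept direction and call in all 21 alternatives. The tumour interaction had 2 members called, and 1 with RLE factors and in the fit of only the groups compared. The TB spleen interaction had 1, and 0 with RLE factors. Tumour against TB spleen had 1 member called in Treg, and 2 with library-size scaling (Ikzf5, −0.27) and with DESeq2 (Ikzf3, 0.23). In Tconv it had 1, and 2 with library-size scaling. TB against normal spleen had 1 in Treg, and 2 with DESeq2 and with only the groups compared (Ikzf2, 0.25 in both). In Tconv it had 1, and 2 with library-size scaling (Ikzf3), DESeq2 (Ikzf4) and only the groups compared (Ikzf3). Leaving out 1 library gave 1 to 2 members for the tumour interaction, 0 to 1 for the other, 0 to 1 and 1 to 2 for TB against normal spleen in Treg and Tconv, 1 and 1 to 2 for tumour against TB spleen in Treg and Tconv, and 4 to 5, 4 and 4 for Treg against Tconv. Signs turned in values that did not pass in either setting: Ikzf4 in tumour against TB spleen Treg (RLE 0.0028, DESeq2 0.0029), Ikzf3 in tumour against TB spleen Tconv (RLE 0.029, DESeq2 0.029, no filter 0.012, only the groups 0.032) and in TB against normal spleen Treg (RLE 0.0032, library size 0.057, DESeq2 0.0032, no filter 0.0084), Ikzf2 in tumour against TB spleen Treg (library size −0.057), and Ikzf5 in TB against normal spleen Tconv (library size 0.068, only the groups 0.0086). Without 1 library, signs also turned for Ikzf3 (−0.11 to 0.087 in tumour against TB spleen Tconv; −0.097 to 0.075 in TB against normal spleen Treg), Ikzf4 (−0.16 to 0.077 in tumour against TB spleen Treg; −0.062 to 0.25 in TB against normal spleen Treg) and Ikzf5 (−0.22 to 0.0030 for TB spleen Treg against Tconv; −0.26 to 0.032 in tumour against TB spleen Treg; −0.12 to 0.10 in TB against normal spleen Tconv; −0.052 to 0.17 in its interaction). The cause was not tested.

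Genes called in the TB spleen interaction numbered 115, and 213 with DESeq2, 184 with no filter and 320 with only the groups compared; in TB against normal spleen Treg 2066, and 3670 with only the groups compared. Without 1 library these counts ran between 42 and 221 and between 512 and 2711, and in TB against normal spleen Tconv between 751 and 2720 (2328 with all). With library-size scaling the share of calls that were higher was 39.9% in place of 53.3% for tumour against TB spleen Treg, 41.5% in place of 53.7% for Tconv, 66.5% in place of 44.4% for TB against normal spleen Treg and 78.5% in place of 56.5% for Tconv. Same-numbered libraries were not taken as pairs: over 8573 genes, 3 of 15 pairs of groups had deviations correlated above 0.1. Treg and Tconv of the same number and site correlated at 0.0987 in the tumour, 0.279 in the TB spleen and 0.185 in the normal spleen. In the TB spleen Fosb had 575 and 83 counts in Treg and 587 and 74 in Tconv. The labels of normal mice also carry other numbers than those used. The replicate block changed 0 calls on the members, and Ikzf2 stayed the 1 member called in TB against normal spleen Tconv. This block gave same-numbered libraries of all 6 groups 1 shared shift. It could not represent a pairing of Treg and Tconv within a site, so the effect of such pairing on the calls was not tested. With 2 libraries a group and 178 to 356 Ikzf4 counts in Tconv, small differences of Ikzf4 there were not resolved.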

Other observations

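The ratio of Ikzf2 to Ikzf1 counts within a library needs no scaling between libraries. It was 2.60 and 2.59 in tumour Treg, 1.67 and 1.86 in TB spleen Treg and 1.33 and 1.15 in normal spleen Treg, against 0.0235 and 0.0256 in tumour Tconv, 0.0389 and 0.0431 in TB spleen Tconv and 0.0221 and 0.0165 in normal spleen Tconv. Within each cell type the 3 sites lay apart from each other. How often ratios of other genes lie apart in this way was not counted. The ratio of Ikzf3 to Ikzf1 was above 1 only in tumour Treg (1.18 and 1.30) among these 12 libraries. It was 0.749 and 0.838 in TB spleen Treg and 0.640 and 0.683 in normal spleen Treg, and at most 0.177 in Tconv.

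Relative to Foxp3, Ikzf2 counts were 0.705 to 0.935 in the 6 Treg libraries. In Tconv the ratio was 1.97 and 2.72 in the tumour, 4.31 and 3.58 in the TB spleen and 1.91 and 1.35 in the normal spleen, so the TB spleen stood above the other Tconv groups.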
